A study of Mus musculus with 6 samples.

Results

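The 10 genes described here encode the NF-kB transcription factor subunits and the IkB proteins that bind them, measured in mouse hearts after endotoxin. They are the subunit genes Rel, Rela, Relb, Nfkb1 and Nfkb2, the classical inhibitor genes Nfkbia, Nfkbib and Nfkbie, and the genes of the nuclear IkB proteins, Nfkbiz and Bcl3. They were chosen by name, as every non-control probe whose transcript accession belongs to 1 of the 10 symbols, which gave 15 of 56605 probes and 10 of 22811 named genes. All 10 genes were well above background on all 6 arrays and were among the 14697 genes tested. The animals were C57BL6 males, 10 weeks old, fasted for 16 h, and every one of them received lipopolysaccharide (LPS, the endotoxin of Gram-negative bacteria) at 20 mg/kg into the peritoneum. Of these, 3 were given saline and 3 recombinant human thrombomodulin (rhTM), at 3 and 24 h after LPS, and total RNA of the heart was taken at 30 h. Thrombomodulin is the endothelial receptor that turns thrombin into an activator of protein C. No heart without LPS was used here, so every value compares rhTM with saline in endotoxemic hearts. The labels do not say whether the mice shared a litter or a day, so p-values measure the spread between these 6 hearts.

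NF-kB is a family of dimeric transcription factors held in the cytoplasm by IkB proteins. Toll-like receptor, interleukin-1 and TNF signals activate the IkB kinase, which marks the classical IkB proteins for degradation and frees dimers of RelA or c-Rel with p50 (the canonical pathway). A slower, non-canonical pathway processes the Nfkb2 product p100 to p52, the partner of RelB. Several members are themselves NF-kB targets: Nfkbia is the textbook negative feedback loop, and Relb, Nfkb2, Nfkbie, Nfkbiz and Bcl3 transcripts are induced during inflammation. Transcript levels do not report nuclear binding or protein breakdown.

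The promoters of members were set beside the expression data because 9 of the 10 members differed in 1 direction and NF-kB can act on its own genes. RefSeq promoter sequences (GRCm38.p6) were matched for 7 of the 10 genes, Rel, Rela, Nfkb2, Nfkbia, Nfkbib, Nfkbie and Bcl3, in 9 windows of 250 bases before a transcription start. Relb, Nfkb1 and Nfkbiz had no entry. The kB consensus, the 10-base NF-kB binding motif, was searched on both strands, counting overlapping matches by their position. It occurred in 6 of the 9 windows and for 4 of the 7 genes, against 3.90% of the 32851 windows of all genes. All 3 windows of Nfkb2 are among the 6. The windows of the 4 genes with the consensus are printed 5′ to 3′ on the strand of the gene, with the consensus in capitals. For Nfkb2, which had 3 windows, the one farthest upstream is shown.
Nfkb2: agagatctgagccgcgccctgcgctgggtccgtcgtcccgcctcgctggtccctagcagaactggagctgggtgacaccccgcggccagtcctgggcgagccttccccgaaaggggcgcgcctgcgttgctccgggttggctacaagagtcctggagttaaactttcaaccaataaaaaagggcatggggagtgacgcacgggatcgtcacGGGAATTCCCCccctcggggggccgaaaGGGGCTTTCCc
Nfkbia: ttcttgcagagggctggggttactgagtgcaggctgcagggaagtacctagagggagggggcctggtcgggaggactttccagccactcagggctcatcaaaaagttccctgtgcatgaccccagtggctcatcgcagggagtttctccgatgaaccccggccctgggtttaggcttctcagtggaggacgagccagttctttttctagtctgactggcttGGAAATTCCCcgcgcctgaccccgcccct
Nfkbie: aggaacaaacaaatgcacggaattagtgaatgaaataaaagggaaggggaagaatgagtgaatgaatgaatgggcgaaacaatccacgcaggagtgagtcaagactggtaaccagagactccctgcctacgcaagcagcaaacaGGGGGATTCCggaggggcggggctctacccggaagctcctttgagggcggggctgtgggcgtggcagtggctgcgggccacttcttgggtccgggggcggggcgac
Rel: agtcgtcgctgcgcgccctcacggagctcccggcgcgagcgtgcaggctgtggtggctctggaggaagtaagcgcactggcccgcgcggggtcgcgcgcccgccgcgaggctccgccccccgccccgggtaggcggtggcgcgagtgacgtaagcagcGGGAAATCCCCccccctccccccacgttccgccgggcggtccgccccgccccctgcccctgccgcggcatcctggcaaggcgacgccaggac
The Nfkb2 window is chr19:46304487-46304736 on the plus strand, with consensus matches beginning 39, 38 and 11 bases before the start, the first 2 of them overlapping. The other 2 Nfkb2 windows held 1 match each and overlapped each other in part. The Nfkbia window is chr12:55492648-55492897 on the minus strand, with 1 match beginning 29 bases before the start. That of Nfkbie is chr17:45555450-45555699 on the plus strand, with 1 match at 106 bases. In the Rel window, chr11:23770970-23771219 on the minus strand, overlapping matches began 92 and 91 bases before the start. Rel, whose group means differed by 0.09, had matches, while Rela, Nfkbib and Bcl3, all lower with rhTM, had none. A match describes letters in a window and not a bound site. Whether the matches have a part in the changes was not tested.

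Each value below is a log2 signal relative to the 75th percentile of its array, so that 0 is that percentile. A change is the rhTM mean less the saline mean, followed by ± its SE from limma (n = 3 and 3), and a gene is called where its adjusted p over all genes tested is under 0.05. On each array 54.8% to 62.8% of 59305 spots were well above background, and the number of arrays limits the precision. Saline 1 and 2 were on slide 1, and saline 3 was on slide 2 with all rhTM arrays. Slide and treatment are therefore partly confounded, and for saline 3 mouse and slide cannot be told apart. Saline 3 and rhTM 3 stood apart from the rest of their groups, among others in neutrophil markers. The summed signal of 11 measured neutrophil markers was 136 and 218 in saline 1 and 2 but 1038 in saline 3, while rhTM 1, 2 and 3 gave 105, 85.8 and 488. Csf3r, the brightest of these markers, was level between the groups (change 0.18 ± 0.18). It made up most of the sum in rhTM 1 and 2, so the sums understate the spread of the other markers. Because saline 3 and rhTM 3 stood apart, results are also given against saline 3 alone and without single arrays. The first is what fitting the slide as a block estimates.

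After rhTM, 9 of the 10 NF-kB and IkB transcripts had a lower group mean, by 0.58 to 1.81 on the log2 scale, as did 49.2% of all genes tested, and Rel differed by 0.09. Relb fell, and it was the 1 member called, against a background of 2.43% of all genes called lower and 5.20% called in either direction. At an unadjusted p under 0.05 there were 8 members lower (15.6% of all genes) and none higher (15.1%). In 7 members every rhTM heart lay below every saline heart, against 18.7% of all genes tested. The 7 were Rela, Relb, Nfkb1, Nfkb2, Nfkbia, Nfkbib and Nfkbiz. Leaving out an array cannot make separate groups overlap, so the count of 7 and the share of all genes could only stay or rise. Without 1 of the arrays in turn the count was 7 to 9, and the share was between 20.0% and 33.2%. It was 9 without rhTM 3 (26.3% of all genes) and 7 without saline 3 (33.2%). The median change over the 10 genes was -0.90, against 0.01 over all genes tested, and -0.86 against saline 3, where 9 members again lay lower. These counts describe the members and were not tested as a set. In bulk heart RNA, fewer cells of a type and less RNA per cell cannot be told apart.

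**Figure D1:**
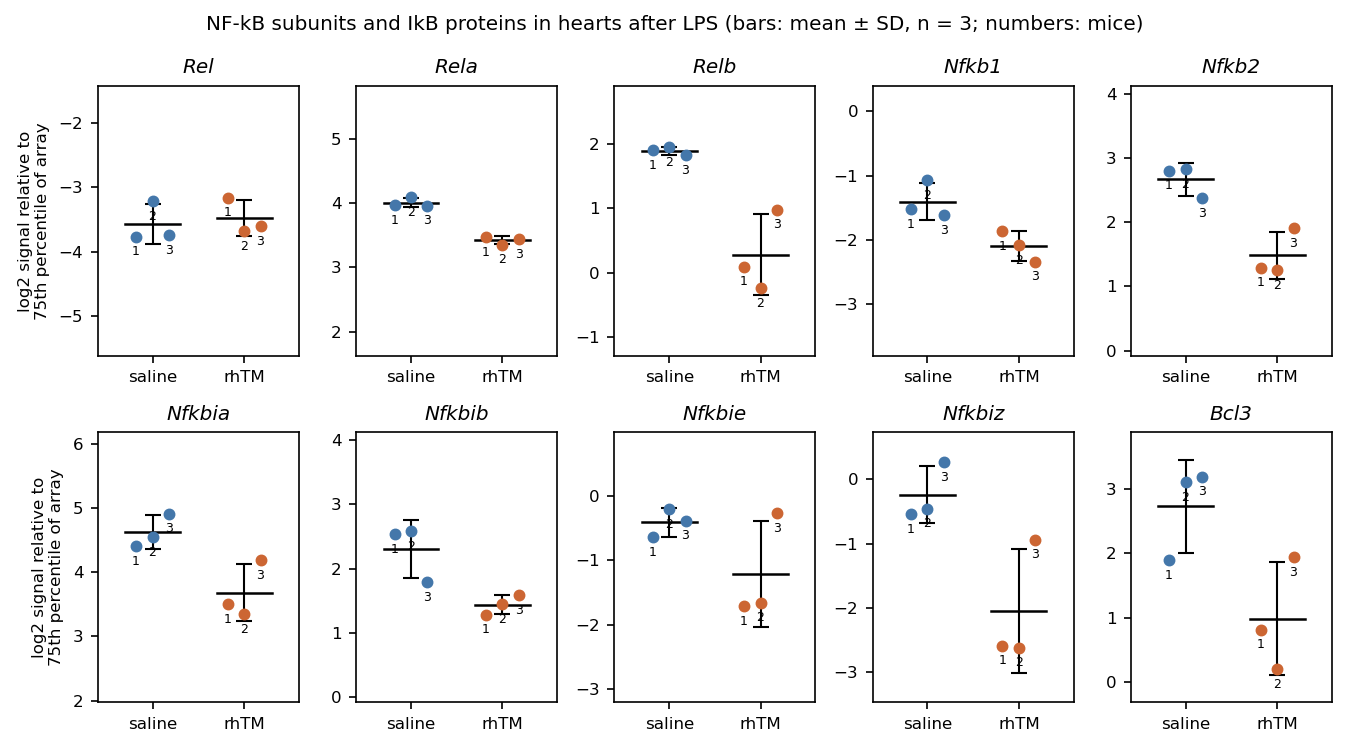
Log2 signal relative to the 75th percentile of the array for each of the 10 genes in the 3 saline (blue) and 3 rhTM (orange) hearts, numbered by mouse; bars are mean ± SD and every panel spans the same height. The groups do not overlap in 7 genes, overlap in Nfkbie and Bcl3 only through rhTM 3, and are level in Rel.

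Relb encodes the subunit that pairs with p52 in the non-canonical pathway. Its signal was 1.90, 1.96 and 1.83 for saline 1, 2 and 3, while rhTM 1, 2 and 3 gave 0.09, -0.24 and 0.98. The saline hearts lay within a narrow band and all rhTM hearts below it, with rhTM 3 the nearest. Relb fell by 1.62 ± 0.33, or 3.08-fold (limma adjusted p = 0.0457, lower in 3 of 3 rhTM hearts). The second, dimmer probe lay at -0.25, -0.19 and -0.80 for saline 1, 2 and 3, while rhTM 1, 2 and 3 gave -2.80, -3.54 and -1.75. It had the same order of groups and a larger change, -2.28 ± 0.46, which was -1.51 with normexp background correction. In the fit of all 30322 probes that passed the filter, 1.33% were called lower, and neither Relb probe passed (limma adjusted p 0.0515 and 0.0505).

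The call on Relb rested on the choice of arrays and fit, while the direction did not. As its groups do not overlap, its sign could not turn without single arrays, with array weights or against saline 3. Against saline 3 Relb differed by -1.56 ± 0.47, and blocked by slide it was not called (limma adjusted p = 0.102), where 1.95% of all genes were called lower. Blocked by replicate number, Relb had a limma adjusted p of 0.0576, where 1.65% of all genes were called lower. Over the 17 alternative settings Relb was lower in all, by 1.36 to 2.08, and was called in 8 (limma adjusted p 3.30e-04 to 0.205). No member was called without saline 1, without saline 2, without rhTM 1 or without rhTM 2 (limma; 7, 6, 7 and 5 lower at unadjusted p under 0.05), fits in which 0, 3, 0 and 0 of all 14697 genes were called lower (1452, 1594, 1314 and 1261 at unadjusted p under 0.05). Without saline 3 there were 5 called and without rhTM 3 there were 4, against backgrounds of 19.1% and 3.48% of all genes called lower.

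Nfkb2, whose product p100 is the precursor of p52 and also acts as an inhibitor, narrowly missed the threshold. Its signal was 2.80, 2.82 and 2.37 for saline 1, 2 and 3, while rhTM 1, 2 and 3 gave 1.29, 1.26 and 1.91. Saline 3 and rhTM 3 were the hearts nearest to each other, and the groups did not overlap. The change was -1.18 ± 0.26, a 2.26-fold difference (limma adjusted p = 0.0521). The dimmer probe differed by -1.80 ± 0.44 and also kept the groups apart. There saline 1 and 2 lay at 1.99 and 2.00 and saline 3 at 0.56, so that against saline 3 the change was smaller (-0.85), as in the brighter probe (-0.88). Without saline 3 and without rhTM 3 Nfkb2 was called (change -1.33 and -1.39).

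The canonical subunits differed by less. Rela, which encodes p65, the main transactivating subunit, lay at 3.96, 4.09 and 3.96 for saline 1, 2 and 3, while rhTM 1, 2 and 3 gave 3.47, 3.35 and 3.44. Both groups were tight, with an SD of 0.07 and 0.06, and they did not overlap. The change was -0.58 ± 0.17, a 1.5-fold difference that was not called (limma adjusted p = 0.0837), and it was -0.54 against saline 3. A much dimmer Rela probe, well above background on 5 of 6 arrays, differed by -0.995 ± 0.37 (-0.53 with normexp background correction, -0.41 against saline 3) and its groups overlapped. Nfkb1, the gene of p105 and its product p50, lay at -1.53, -1.08 and -1.61 for saline 1, 2 and 3, while rhTM 1, 2 and 3 gave -1.86, -2.09 and -2.34. The groups did not overlap, and rhTM 3 was the lowest heart. The change of Nfkb1 was -0.69 ± 0.23 (limma adjusted p = 0.113), -0.48 against saline 3, and -0.045 in the deposited value table.

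Rel, the gene of c-Rel, which is best known in lymphocytes and myeloid cells, lay low on the array. Its signal was -3.77, -3.21 and -3.74 for saline 1, 2 and 3, while rhTM 1, 2 and 3 gave -3.16, -3.69 and -3.60. The groups overlapped throughout. The change was 0.09 ± 0.25 (limma adjusted p = 0.823), and its sign turned with normexp background correction (-0.14), quantile normalization (-0.18) and array weights (-0.053), and without saline 1 or rhTM 1.

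Differences between 2 members within an array do not depend on the scaling of that array. Relb minus Rela was -2.06, -2.13 and -2.13 for saline 1, 2 and 3, while rhTM 1, 2 and 3 gave -3.38, -3.59 and -2.46. Relb thus lay lower relative to Rela in every rhTM heart, by 1.04 (2.05-fold). The exact two-sided permutation test gave p = 0.1, the smallest that 3 against 3 can give, or 0.375 adjusted over 5 pairs (Benjamini-Hochberg). Nfkb2 differed by -0.49 relative to Nfkb1 and Bcl3 by -1.06, but with overlapping groups (exact permutation p = 0.3 for each, adjusted 0.375). Nfkbia differed by -0.36 relative to Rela (exact permutation p = 0.3, adjusted 0.375) and by -0.08 relative to Nfkbib (exact permutation p = 0.9, adjusted 0.9).

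The classical IkB genes all lay lower in the group mean and none was called. Nfkbia, which encodes the rapidly resynthesised inhibitor IkB-alpha, lay at 4.41, 4.55 and 4.91 for saline 1, 2 and 3, while rhTM 1, 2 and 3 gave 3.51, 3.35 and 4.18. In both groups mouse 3 was the highest, and the groups did not overlap. The change was -0.94 ± 0.28, a 1.92-fold difference (limma adjusted p = 0.0919), and it was larger against saline 3 (-1.23 ± 0.35, limma adjusted p = 0.0932) and in the deposited value table (-1.43, called). The fit of that table called 2313 of all 14697 genes lower. Nfkbib, the gene of IkB-beta, lay at 2.53, 2.59 and 1.78 for saline 1, 2 and 3, while rhTM 1, 2 and 3 gave 1.28, 1.45 and 1.59. Here saline 3 lay close to the rhTM hearts. The change of Nfkbib was -0.86 ± 0.27 (limma adjusted p = 0.0986) but -0.35 ± 0.19 against saline 3. Its dimmer probe differed alike, with -1.15 overall and -0.22 against saline 3. Nfkbie, the gene of IkB-epsilon, lay at -0.64, -0.21 and -0.38 for saline 1, 2 and 3, while rhTM 1, 2 and 3 gave -1.71, -1.66 and -0.27. The first 2 rhTM hearts lay below all saline hearts and rhTM 3 within their range. The change of Nfkbie was -0.80 ± 0.41 (limma adjusted p = 0.233), and -1.27 without rhTM 3, where it was called.

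The 2 nuclear IkB genes had large differences with a wide spread. Nfkbiz encodes IkB-zeta, a nuclear cofactor that p50 dimers need to switch on secondary genes such as Il6 and Lcn2. Its signal was -0.54, -0.46 and 0.27 for saline 1, 2 and 3, while rhTM 1, 2 and 3 gave -2.59, -2.62 and -0.94. The groups did not overlap, and mouse 3 was the highest in both. The change was -1.81 ± 0.50, a 3.50-fold difference (limma adjusted p = 0.0815), and -2.32 against saline 3. Blocked by replicate number Nfkbiz was called (limma adjusted p = 0.0459). The second Nfkbiz probe lay at -1.71, -1.41 and -2.30 for saline 1, 2 and 3, while rhTM 1, 2 and 3 gave -4.01, -4.16 and -3.13. It fell by 1.96 ± 0.36 and was the 1 probe of 15 called in the fit of all probes (limma adjusted p = 0.0432). The probes differed on saline 3, which was the highest saline heart by the first and the lowest by the second. Against saline 3 the second probe differed by -1.47, and with normexp by -1.07; it was called in neither, nor was it when blocked by replicate number (no member probe was; 13 were lower at unadjusted p under 0.05 in limma).

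Bcl3 encodes a nuclear IkB protein that binds p50 and p52 homodimers. It lay at 1.89, 3.11 and 3.20 for saline 1, 2 and 3, while rhTM 1, 2 and 3 gave 0.82, 0.20 and 1.94. The lowest saline heart, saline 1, lay just below rhTM 3, so that the groups overlapped by that pair. The change was -1.75 ± 0.54, a 3.35-fold difference (limma adjusted p = 0.0986), and it was -2.21 ± 0.77 against saline 3.

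Where a gene had more than 1 probe, its probes had the same direction, in 5 of 5 genes. Of the 15 probes 14 lay lower with rhTM, and in 11 the groups did not overlap, against 15.8% of all probes. Probes of 1 gene differed in size by 0.16 for Nfkbiz to 0.66 for Relb.

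**Figure D2:**
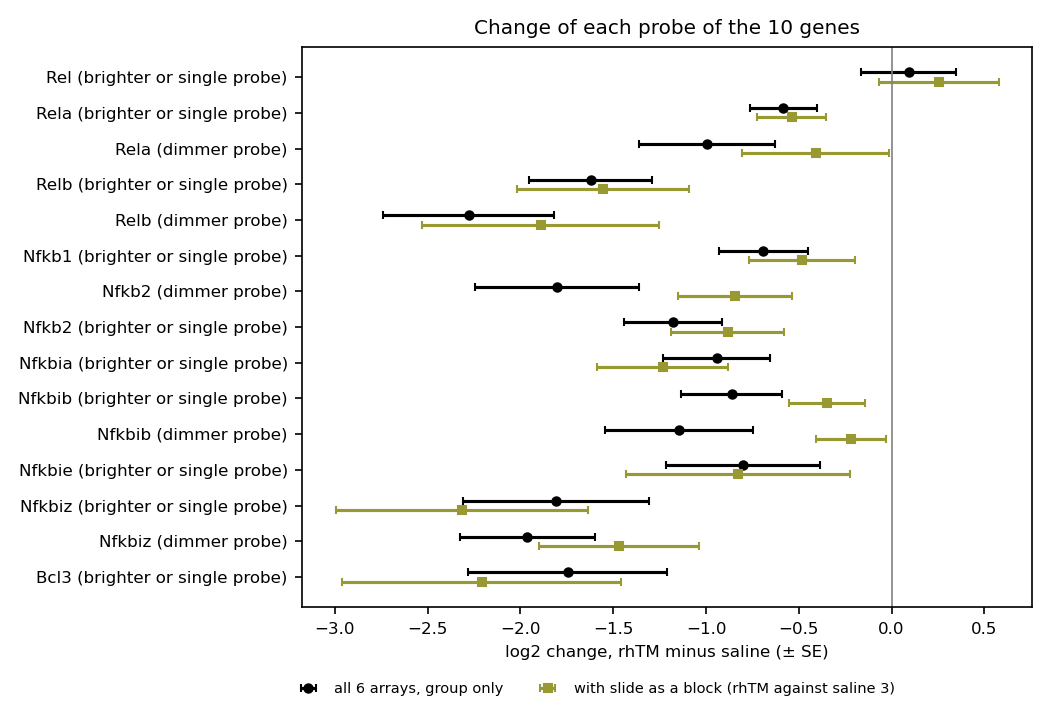
Log2 change (rhTM minus saline, ± SE) of each of the 15 probes from the fit of all 6 arrays (circles) and from the fit blocked by slide, which equals rhTM against saline 3 (squares). All probes but that of Rel lie below 0 in both fits, and Nfkbib, Nfkb2 and Nfkb1 are nearer 0 against saline 3 while Nfkbia, Bcl3 and the brighter Nfkbiz probe are farther.

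The third mouse of each group often stood at the edge of its group. Saline 3 was the only saline heart on slide 2, so its place may reflect the mouse or the slide. In rhTM hearts mouse 3 was the highest in 7 of 10 members, namely Relb, Nfkb2, Nfkbia, Nfkbib, Nfkbie, Nfkbiz and Bcl3, and in 40.5% of all genes tested. Among saline hearts mouse 3 was the highest for Nfkbia, Nfkbiz and Bcl3, and the lowest for 5 members, Rela, Relb, Nfkb1, Nfkb2 and Nfkbib. These counts of 3 and 5 in 10 are near the shares over all genes, 43.9% and 45.0%. In rhTM 1 and 2 together 9 of 10 members lay below all saline hearts, against 26.3% of all genes tested, and in rhTM 3 there were 7, against 29.1%. Nfkbia, Bcl3 and the brighter Nfkbiz probe were highest in the hearts of each group with the highest neutrophil markers, whereas by the second Nfkbiz probe saline 3 was the lowest saline heart. The part of those markers in these values was not tested.

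The markers of other cell types moved with the groups to different extents. Heart muscle was present as labelled: the brightest of 9 cardiomyocyte markers were Myh6, Tnnt2, Mb and Tnni3, and their list, with 2 of 9 lower, summed to 1384 to 2122 in saline and 2025 to 3048 in rhTM hearts. Of 11 neutrophil markers measured, led by Csf3r, S100a9, S100a8 and Retnlg, 10 lay lower with rhTM in the group mean, and none was at background on all arrays. Of 10 monocyte and macrophage markers 7 lay higher and 3 lower, with a median change of 0.31. Cx3cr1, a receptor of patrolling monocytes and resident macrophages, rose by 4.40 ± 0.57 (limma adjusted p = 0.0243), and Ccr2 and Lyz2 differed by 2.82 and 1.87 (0.0534 and 0.104). These 3 were named after their values were seen. Cx3cr1 and Ccr2 each exceeded background clearly in only 1 saline heart. Both passed the filter through the rhTM arrays alone, where they were high. The sizes of their changes and the call on Cx3cr1 are therefore uncertain, because they are set against saline signals that mostly lay at background. The sum of the list went the other way, from 118 to 170 in saline to 64.9 to 111 in rhTM hearts, and its brightest gene, Ly6c2, differed by -1.38 ± 0.33 (limma adjusted p = 0.0631). Ly6c2 made up most of that sum in every saline heart, so the sum mainly follows Ly6c2 and not the list. Of 12 lymphocyte markers 2 lay lower, and the list summed to 2.60 to 5.71 in saline and 5.25 to 7.70 in rhTM hearts, and Cd3g, Cd8a, Ms4a1, Klrb1c and Ncr1 were not well above background on any array. Endothelial markers, 6 of 8 lower, summed to 29.3 to 54.2 in saline and 28.7 to 38.7 in rhTM hearts, and fibroblast markers, 5 of 7 lower, to 212 to 237 and 207 to 304. Whether the mix of cells contributes to the changes of the members was not tested.

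**Figure D3:**
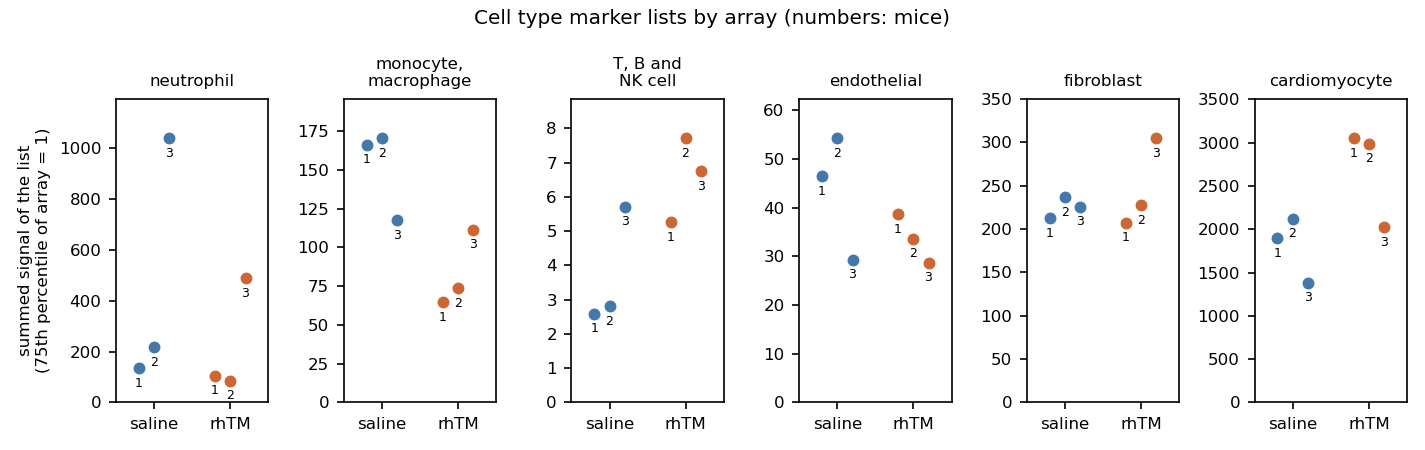
Summed linear signal of each cell type marker list in the 3 saline and 3 rhTM hearts, numbered by mouse, where 1 is the 75th percentile of the array and each axis starts at 0. Neutrophil markers are highest in saline 3 (1038) and rhTM 3 (488), and the macrophage sum, in which Ly6c2 is the brightest gene, is lower in all rhTM hearts although 7 of its 10 genes are higher in the group mean.

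The rest of the pathway was read off the same fit. Of 96 listed genes that act upstream, downstream or beside the 10 members, 94 had a named probe and 89 were tested. Of these, 67 lay lower and 22 higher in the group mean, where 49.2% of all genes tested lay lower. The genes called were 4, all lower, against 2.43% of all genes called lower and 2.77% called higher. None was called higher (limma; 7 at unadjusted p under 0.05). Without saline 1, saline 2, rhTM 1 or rhTM 2 none was called lower (limma; 25, 23, 16 and 14 at unadjusted p under 0.05), in the same fits that called 0, 3, 0 and 0 of all genes lower. Without saline 3 and rhTM 3 there were 24 and 21, against 19.1% and 3.48% of all genes. In 33 all rhTM hearts lay below all saline hearts, against 18.7% of all genes tested, and in 7 all lay above, against 17.0%. Blocked by replicate number 7 were called lower in place of 4, in a fit that called 1.65% of all genes lower. The 7 were Csf3, Il6, Cxcl2, Cxcl5, Map3k8, Il1r1 and Zc3h12a.

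Among 31 kinases, adaptors and ubiquitin ligases upstream of NF-kB, 25 lay lower (49.2% of all genes tested), with a median change of -0.47. In 16 of them all rhTM hearts lay below all saline hearts (18.7% of all genes tested). The called gene was Myd88, the adaptor of Toll-like and interleukin-1 receptors, which fell by 1.54 ± 0.29 (limma adjusted p = 0.0430). Myd88 was not called when blocked by slide (limma adjusted p = 0.0934) or by replicate number (0.0563). Birc3, a ubiquitin ligase of TNF signalling that is itself an NF-kB target, differed by -1.68 ± 0.38 (limma adjusted p = 0.0560). Of the kinase complex itself, the catalytic subunits differed by -0.59 ± 0.19 (Ikbkb, limma adjusted p = 0.105) and -0.30 ± 0.17 (Chuk, 0.270), and Map3k14, the kinase that starts the non-canonical pathway, by -0.61 ± 0.23 (0.140). The 3 genes were picked for their place in the pathway after their values were seen.

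Receptors that signal to NF-kB lay lower in 8 of 10 tested, with a median of -0.81, and none was called (limma; 2 at unadjusted p under 0.05). Blocked by slide, Ltbr and Tnfrsf12a were called, as given with the targets below. Il1r1, the interleukin-1 receptor, differed by -1.23 ± 0.38 (limma adjusted p = 0.0964) and was called when blocked by replicate number (limma adjusted p = 0.0465). Tnfrsf1a, the main TNF receptor, differed by -0.86 ± 0.31 (limma adjusted p = 0.127). Of 12 feedback inhibitors tested 10 lay lower, with a median of -0.44, and none was called (limma; 6 at unadjusted p under 0.05). Zfp36, which speeds the decay of cytokine transcripts, differed by -1.09 ± 0.24 (limma adjusted p = 0.0521). Tnip1, a partner of the deubiquitinase A20, differed by -1.03 ± 0.24 (0.0574). Among 7 tested genes of other IkB-related proteins, 4 lay higher and 3 lower, with a median of 0.42 and none called (limma; 4 at unadjusted p under 0.05). Nkap differed by 0.68 ± 0.22 (limma adjusted p = 0.104). Nfkbid, a further nuclear IkB gene, differed by -1.36 ± 0.48 (0.121) in the direction of Nfkbiz and Bcl3.

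Transcribed targets lay lower in 18 of 23 tested (49.2% of all genes tested), with a median of -2.48. The genes called were 3, all lower, against 2.43% of all genes called lower. The 5 higher were Tnf, Nos2, Sod2, F3 and Plau, none of them called and named after their values were seen. For Sod2 (1.29 ± 0.30, limma adjusted p = 0.0605) and Tnf (0.94 ± 0.25, 0.0734) all rhTM hearts lay above all saline hearts. These were the only 2 of the 23 to do so, against 17.0% of all genes tested. In 9 of the 23 all rhTM hearts lay below all saline hearts, against 18.7%. Csf3, a granulocyte growth factor, exceeded background clearly in none of the rhTM hearts and was at least 8.03-fold lower (limma adjusted p = 0.0279). Csf3 passed the filter through the saline arrays alone, where it was high, and its call rests on rhTM values at background. Csf1, the macrophage growth factor, fell by 1.32 ± 0.24 (limma adjusted p = 0.0417). Selp, the adhesion receptor P-selectin, fell by 4.06 ± 0.83 (0.0464). Blocked by slide, Csf3 was called (limma adjusted p = 0.0330) while Csf1 and Selp were not (0.0828 and 0.109). In that fit, which called 1.95% of all genes lower, the other pathway genes called were Ltbr, Tnfrsf12a and Bcl2l1, all lower. Ltbr and Tnfrsf12a are from the receptor list, and the 3 were chosen for naming after their values were seen. With group only they differed by -0.205, -0.85 and -0.93 (limma adjusted p 0.75, 0.240 and 0.114), and the groups of Ltbr and Tnfrsf12a overlapped. Genes linked to RelB and p52 were 3 lower and 3 higher of 6 tested, with a median of -0.09, and none was called (limma; 1 at unadjusted p under 0.05). Ccl19, a lymphoid chemokine, differed by -1.65 ± 0.66 (limma adjusted p = 0.153) and Glycam1 by 1.02 ± 0.47 (0.192).

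**Figure D4:**
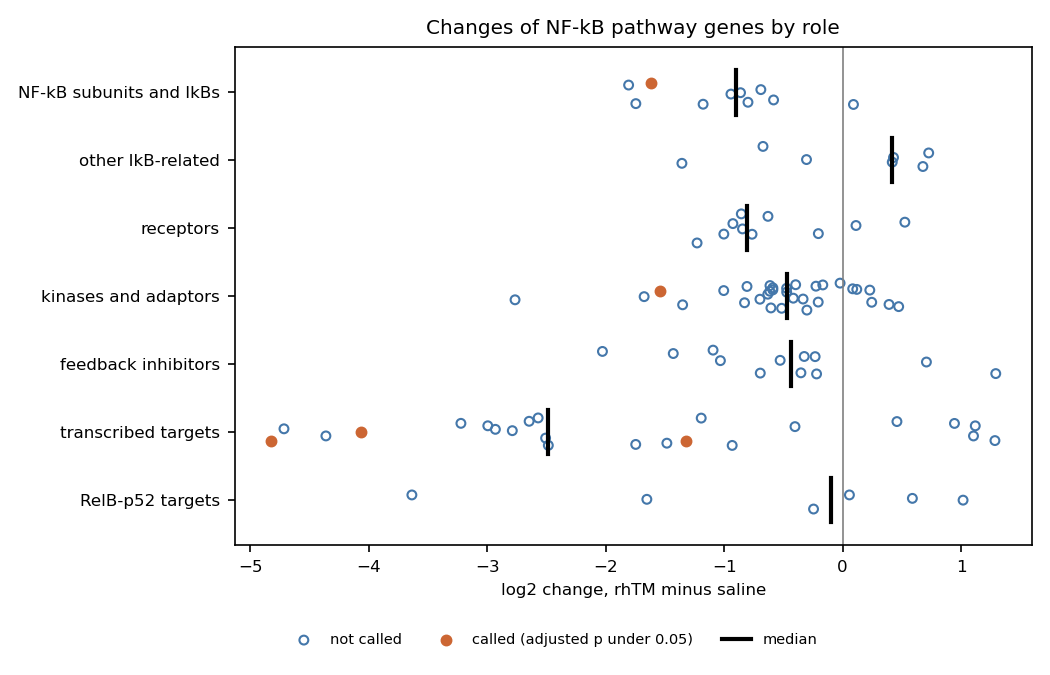
Log2 change (rhTM minus saline) of each tested gene by role in the pathway, with the median as a bar and called genes filled. The members centre on -0.90 and the transcribed targets on -2.48, while other IkB-related genes and RelB-p52 targets lie on both sides of 0; the leftmost point, Csf3, is a fitted value whose rhTM arrays were at background.

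The profile over the 6 arrays, centred on its own mean, was compared among all genes tested by its root mean square difference. Nearest to Relb were Pfkfb3, an activator of glycolysis, with a difference of 0.10, Birc3 (0.10) and Myd88 (0.10). The last 2 were also on the list of upstream genes. Nearest to Nfkbia were a histone gene, H3c4 (0.09), Aacs (0.09) and Dnajc14 (0.09). Among the members the nearest pair was Rela with Nfkb1 (0.19), followed by Nfkb2 with Nfkbib (0.24), Nfkbia with Nfkbie (0.29) and Rela with Nfkbib (0.29). With 6 arrays many genes share such profiles: 915 genes were nearer to Rela than Nfkb1 was, and 94 were nearer to Relb than Nfkb2 was.

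**Figure D5:**
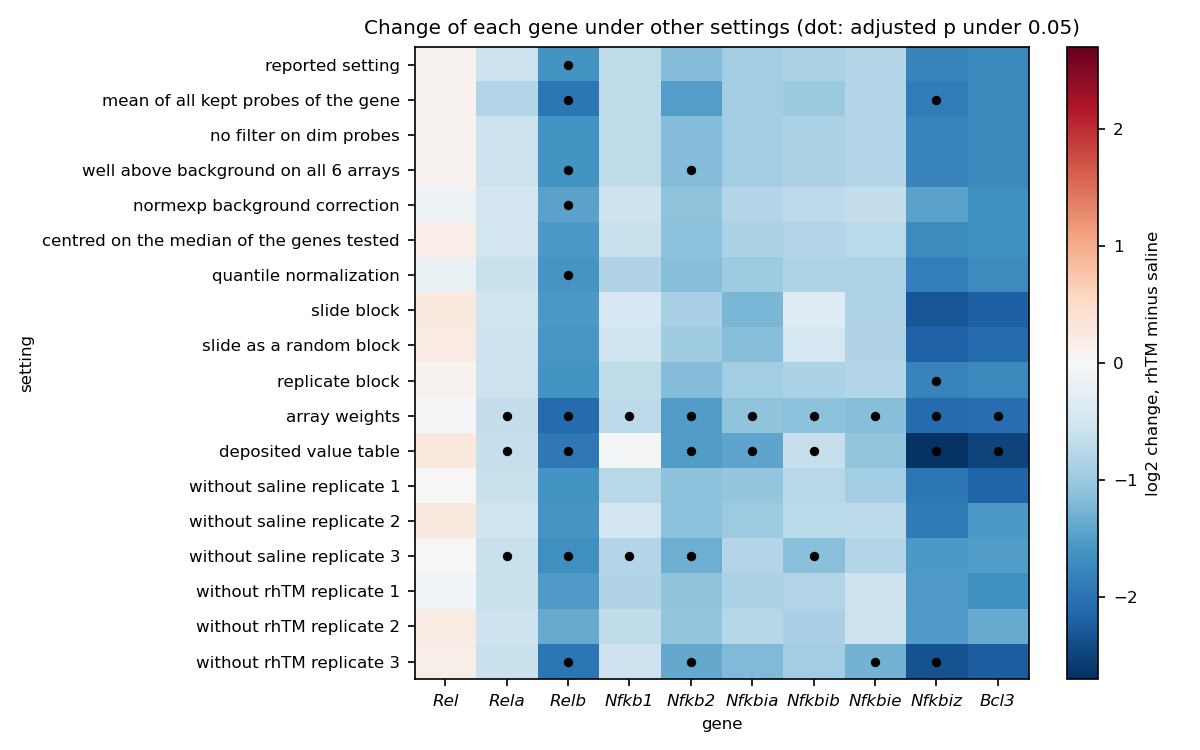
Log2 change (rhTM minus saline, colour) of each member under the reported setting and 17 alternatives, with a dot where limma's adjusted p is under 0.05. The 9 members other than Rel are below 0 in every row, while the dots move: Relb is called in 8 alternatives, and array weights call 9 members in a setting that calls 31.2% of all genes lower. Rows without single arrays could not turn the sign of members whose groups do not overlap.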

How the data were processed

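Heart RNA of 6 mice was measured on 1-colour Agilent arrays, 1 array each, with groups taken from the sample titles. The deposited scanner output is intensity per spot. Per the file headers it came from Feature Extraction 10.7.3.1 (grid build mm9), whereas the submitters' processing notes name version 9.1. The authors also deposited a table of log2 values, whose centring is unknown here. Compared with the scanner values, each probe had 1 baseline per slide in that table, and the baselines of slides 1 and 2 differed with an SD of 0.824, so it served as an alternative only. The table's medians for saline 1, 2 and 3 were -0.02, -0.16 and 0.10; rhTM 1, 2 and 3 had -0.08, 0.03 and 0.09.

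From the processed signal, log2 values minus the 75th percentile over non-control spots were computed. That percentile was 732, 671 and 394 for saline 1, 2 and 3, while rhTM 1, 2 and 3 gave 463, 466 and 412. Spots of a probe were averaged, and 368 of 56605 probes with an outlier flag were left out. Of the rest, 32784 were named through RefSeq accessions (GRCm38.p6) and 23453 were not. Each gene was represented by its brightest probe and tested if all 3 arrays of either group showed that probe well above background. Tests used limma 3.58.1 (R 4.3.3) with Benjamini-Hochberg adjustment over all genes; the script was tested on simulated data. In all, 407 genes were called higher and 357 lower, or 483 and 268 when arrays were centred on the median of the genes tested. All probes were fitted in the same way. The at-least fold of Csf3 sets its saline mean against the higher of each rhTM array's lowest signal above background and the probe's own. Normexp was run on the median spot signal.

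Same-numbered saline and rhTM arrays deviated from their group means together (correlation 0.319, 0.235 and 0.372 across genes), but saline 1 and rhTM 2 reached 0.314. The pairing rests on these correlations and on the mouse numbers in the titles, with no stated litter or day. The members, gene lists and tests were chosen with earlier results of these data known. Named by rule were all members, every called gene and the 2 lowest p of each pathway list. So were up to 4 markers per list by signal and the 3 nearest profiles of Relb and Nfkbia. The other genes named, among them Ikbkb, Cx3cr1, Tnf and Ltbr, were picked after their values were seen.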

Additional observations from a re-analysis of the deposited data

How the results depend on the processing

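The direction of the 9 members other than Rel was the same in all 17 alternatives. For the 7 members whose groups do not overlap, part of this was fixed beforehand. Their sign could not turn without single arrays, with array weights or with the slide as a fixed block. The filters on dim probes and the replicate block leave the change of every member as it was. Rel turned to -0.14 with normexp, -0.18 with quantile normalization (its probe alike) and -0.053 with array weights, and ranged from -0.069 to 0.27 without single arrays, for the gene and its probe. The count of members called lower, 1 as reported, was 2 with the mean of all probes, 2 when all 6 arrays had to pass the background filter, 9 with array weights and 7 with the deposited table. It was 0 with no filter on dim probes and with arrays centred on the median (limma; 8 at unadjusted p under 0.05 in each). It was 0 with the slide as a fixed or random block (6 in each), and 0 to 5 without single arrays. Member probes called lower, 1 as reported, were 2 on the stricter filter, 2 with normexp, 2 with quantile normalization, 3 with median centring and 14 with array weights. They were 0 with no filter (limma; 13 at unadjusted p under 0.05), with the fixed or random slide block (9 in each) and with the replicate block (13), and 0 to 10 without single arrays. The share of all probes called lower was taken for the reported fit only (1.33%). Of all genes, 31.2% were called lower with array weights and 19.1% without saline 3. Pathway genes called lower, 4 as reported, were 1 with no filter, 1 with the slide as a random block, 7 with the replicate block, 56 with array weights and 37 with the deposited table, and 0 to 24 without single arrays. Those called higher, 0 as reported, were 1 with the mean of all probes, 16 with array weights and 6 with the deposited table, and 0 to 10 without single arrays. Over all genes, 132 were called higher and 19 lower with no filter, 200 and 212 with normexp, 4662 and 4579 with array weights and 2205 and 2313 with the deposited table. Without single arrays they were 0 to 3006 and 0 to 2806. The replicate block, which takes the mouse number as a pair, kept 1 member called, Nfkbiz in place of Relb, and changed no other member's call. Nfkb1 came to -0.045 with the deposited table. The cause of these shifts was not tested. The members with all rhTM hearts below all saline hearts, an alternative chosen after seeing the data, were 7 to 9 without single arrays. There 20.0% to 33.2% of all genes did the same, against 18.7% with all arrays. Leaving out an array could not lower either figure. Signal was well above background on all 6 arrays for 14 of the 15 member probes.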
